A study of Homo sapiens with 12 samples.

Results

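P-TEFb, the positive elongation factor made of the kinase CDK9 and cyclin T1 or cyclin T2, releases RNA polymerase II (Pol II) that has paused shortly after the start of a gene. The 9 genes described here encode this kinase and its cyclins (*CDK9*, *CCNT1*, *CCNT2*), the proteins of the 7SK small nuclear ribonucleoprotein (7SK snRNP) that stores it in an inactive form (*HEXIM1*, *HEXIM2*, *LARP7*, *MEPCE*), and a pair of scaffold proteins of the super elongation complex (SEC) that carry it to genes (*AFF1*, *AFF4*). They were chosen by name and role, with earlier results of these data known, and are 9 of the 58037 genes of the count table. The table has 12 columns, named for samples of HCT116, a human colorectal carcinoma cell line with wild-type genotype. By the labels, 3 samples each had been kept for 8 h with the vehicle DMSO, with Nutlin-3a at 10 μM, with NVP-2 at 20 nM, or with both compounds at these doses. Nutlin-3a keeps MDM2 from binding p53 and so stabilizes p53, and NVP-2 is an inhibitor of CDK9.

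The 12 columns did not differ at any gene (0 of 58037), so the table gives 1 distinct profile. Its total was 22720718 counts, and which treatment or library it came from is not known. Whether the counts of the single libraries differ elsewhere was not examined. The study reports genes changed by Nutlin-3a and by NVP-2, which this table cannot show. Without replicates or a treated profile, no drug effect, spread or test could be had. The values describe this profile, and their 95% intervals cover counting error only. Of 7 epithelial markers 6 had an RPKM (counts scaled to the length of the gene in kilobases and to the library total) of at least 1, led by *KRT8* at 514, whereas *VIL1*, a microvillus protein of the gut epithelium, had 4 counts. None of the 10 markers of leukocytes, fibroblasts, endothelium and hepatocytes reached an RPKM of 1 with merged exons. Of all protein-coding genes 44.6% reached it. *COL1A1*, a fibroblast collagen, came closest with 199 counts and an RPKM of 0.972, which was 1.48 with the canonical transcript and 1.09 without mitochondrial counts in the total. With merged exons the summed RPKM of the markers was 0.0662 for leukocytes, 1.00 for fibroblasts, 0.105 for endothelium and 0.812 for hepatocytes. *PTPRC* and *COL1A2* were at 0.

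In a cell, P-TEFb moves between a stored and an active form. In the 7SK snRNP, MEPCE caps the 5′ end of the noncoding 7SK RNA and LARP7 binds its 3′ end, while HEXIM1 or HEXIM2 docks on the RNA and inhibits CDK9. When released, P-TEFb can be taken up by the SEC, whose AFF proteins hold it together with ELL and related elongation factors. It then phosphorylates the Pol II C-terminal domain and the pausing factors DSIF and NELF.

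The sequences that tie these genes to their names and that tell the paralogs apart in a read are shown here, 5′ to 3′ on the strand of the transcript and read from hg38 with GENCODE v44. CDK9 was once named for its PITALRE motif, which lies in the helix that contacts the cyclin. Its 7 codons, in capitals below, begin just after a few bases that are shown in lower case, and the stretch crosses from exon 2 to exon 3 of 7 on the plus strand of chromosome 9, between 127786780 and 127787541. The start of the 7SK RNA, chr6:52995621-52995650 on the plus strand, is shown with its GATC in capitals, letters that recur in the 5′ hairpin, the part of the RNA to which HEXIM proteins bind. It matched the assembled chromosomes at 7 places, whereas the *CDK9* stretch crosses a splice junction and matched at 0.
CDK9: gggttcCCCATTACAGCCTTGCGGGAG
RN7SK: gatgtgagggcGATCtggctgcgacatctg

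The paralogs are related, but their canonical transcripts share no stretch as long as a read. Capitals mark the longest exact stretch that the coding sequences of each pair share. It measured 20 nt for *CCNT1* and *CCNT2*, 14 nt for *HEXIM1* and *HEXIM2* and 16 nt for *AFF4* and *AFF1*, all shorter than a read of 75 nt. The whole canonical transcripts shared no longer stretch. Aligned end to end, the coding sequences were identical at 58.2%, 64.1% and 56.9% of the aligned bases, in the same order and with gaps left out. For *LARP7* and *MEPCE*, which are not paralogs, the same alignment gave 47.3% and the longest shared stretch was 12 nt. The stretches lie in exon 7 of 9 of *CCNT1* (chr12:48696062-48696091, minus strand) and of *CCNT2* (chr2:134947807-134947836, plus strand). In the second pair they lie in the only exon of *HEXIM1* (chr17:45149756-45149785, plus strand) and exon 4 of 4 of *HEXIM2* (chr17:45169328-45169357, plus strand). For the AFF genes they lie in exon 11 of 21 of *AFF4* (chr5:132897205-132897234, minus strand) and exon 12 of 21 of *AFF1* (chr4:87114373-87114402, plus strand). Each of these windows of 30 nt matched the assembled chromosomes at 1 place.
CCNT1: gcaagTGGTCCAATTGGGAGATCCCagtct
CCNT2: gcaaaTGGTCCAATTGGGAGATCCCtgtat
HEXIM1: tccgagccGAGATGTTCGCCAAgggccagc
HEXIM2: tccgcgaaGAGATGTTCGCCAAaggccagc
AFF4: cccccgcCAACAAACAAATGGCAacttgat
AFF1: cctccaaCAACAAACAAATGGCAgctggac

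All 9 genes were detected, with between 92 and 4390 counts each. Together they held 10059 counts, or 0.0443% of the profile. With merged exons or canonical transcripts as the length, *CDK9* and *CCNT1* stood highest, and the HEXIM inhibitors and *AFF1* lowest. From *CDK9* to *AFF1* the RPKM spanned 61.4-fold. The study's methods also use an RPKM of at least 1 as the threshold for expression, but across its conditions. Here it was set on 1 profile with v44 lengths, so a gene below it need not have been left out there. An RPKM of at least 1 was reached by 8 of the 9 genes, all but *AFF1*, and by 44.6% of all 19629 protein-coding genes. With the canonical transcript as the length it was again 8 of 9, against 49.1% of all. A CPM (counts scaled to the library total alone) of at least 1 was reached by 9 of 9 and by 58.0% of all. Among genes with at least 10 counts, 71.0% reached an RPKM of 1, as did 8 of the 9. The median RPKM of the 9 genes was 2.91, against 0.589 over all protein-coding genes and 6.03 over those at or above the threshold. The 9 genes therefore lay on both sides of the middle of the expressed genes.

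**Figure D1:**
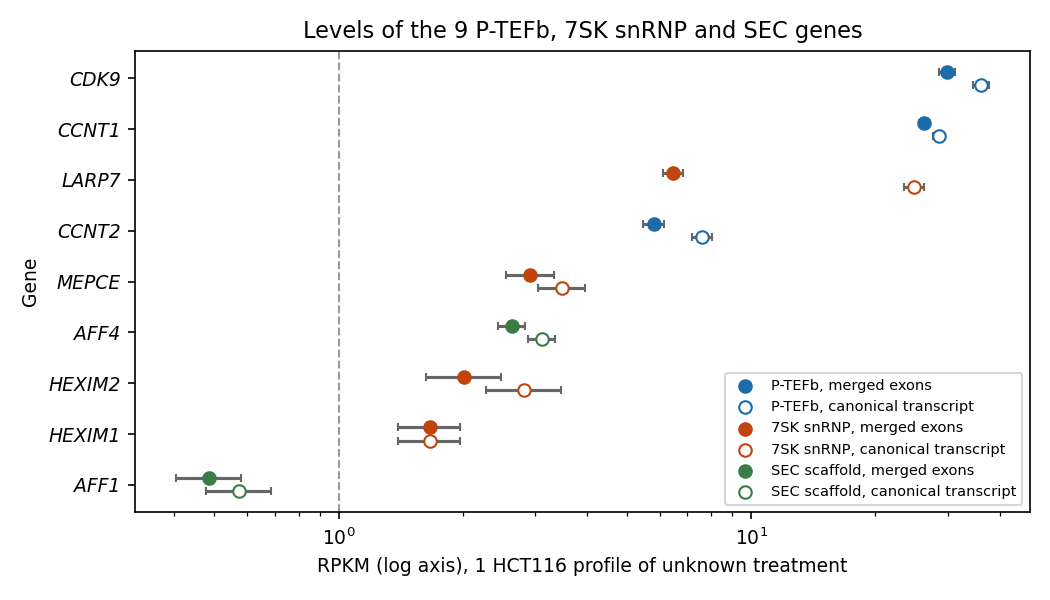
RPKM (log axis) of each of the 9 genes in the distinct HCT116 profile, with the gene length taken from merged exons (filled) or from the canonical transcript (open); bars are 95% counting intervals and the dashed line marks an RPKM of 1. *CDK9* and *CCNT1* stand at the top on both lengths, *AFF1* at the bottom, and *LARP7* moves from 6.46 to 24.8.

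*CDK9*, the kinase, had 2037 counts, which is 89.7 CPM (95% interval 85.8 to 93.6) and an RPKM of 29.8 (28.6 to 31.2). With merged exons it was the highest of the 9 and ranked 1321 among the protein-coding genes, above 93.3% of them. With the median coding transcript as the length it came after *CCNT2*, at 56.3 against 79.5. *CDK9* is a compact gene of 5114 bp on chromosome 9 (127785679 to 127790792, plus strand) with a coding sequence of 1119 nt.

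*CCNT1* encodes cyclin T1, the partner of CDK9 that is also known as the host cofactor of the HIV Tat protein. It had the most counts of the 9 genes, 4390, or 193 CPM (188 to 199). Per length its RPKM was 26.2 (25.4 to 27.0), which places it just under *CDK9* with a *CDK9* to *CCNT1* ratio of 1.14 (1.08 to 1.20). The larger count of *CCNT1* thus went with its longer merged exons, 7371 nt against 3005 nt for *CDK9*. *CCNT1* spans 28541 bp of chromosome 12 (48688458 to 48716998, minus strand).

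*CCNT2* encodes cyclin T2, the alternative cyclin of P-TEFb, and lies on chromosome 2 (134918235 to 134959342, plus strand). It had 1197 counts, 52.7 CPM (49.7 to 55.8) and an RPKM of 5.80 (5.48 to 6.14), at the 77.3th percentile of protein-coding genes. The RPKM of *CCNT1* was 4.52-fold that of *CCNT2* (4.24 to 4.82). In raw counts the ratio was 3.67 (3.44 to 3.91) and with the length of the canonical transcripts 3.74 (3.51 to 3.99), whereas it turned to 0.355 with the median length of the coding transcripts, which for *CCNT2* is 663 nt. The summed RPKM of the T cyclins was 1.07-fold that of *CDK9* (1.02 to 1.13), and 0.999-fold (0.950 to 1.05) with the canonical transcripts. It was 1.91-fold (1.80 to 2.03) with the median coding transcript and 2.74-fold (2.61 to 2.89) in raw counts. The near 1 to 1 mRNA level of *CDK9* and the T cyclins thus held for merged exons and canonical transcripts, where *CCNT1* gave most of the cyclin side.

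By RPKM the mRNAs of the 7SK snRNP proteins were lower than that of *CDK9*. These are mRNA levels, and the amounts of the proteins in the complexes were not measured here. *HEXIM1*, an intronless gene of 3625 bp on chromosome 17 (45148475 to 45152099, plus strand), encodes the main inhibitor of P-TEFb in this complex. It had 137 counts, 6.03 CPM (5.06 to 7.13) and an RPKM of 1.66 (1.40 to 1.97). *HEXIM2*, which encodes a paralog of the inhibitor, starts 8600 bp downstream on the same strand (45160700 to 45170040), and had 92 counts, 4.05 CPM (3.26 to 4.97) and an RPKM of 2.02 (1.63 to 2.47). *HEXIM2-AS1*, an antisense gene in this interval, had 37 counts in these strand-specific data.

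Which HEXIM gene was higher depended on the scale. In raw counts *HEXIM1* was 1.49-fold *HEXIM2* (1.14 to 1.96). Per length of the merged exons the ratio was 0.825, and its interval of 0.629 to 1.09 held 1, so that no difference was detectable at this depth. With the canonical transcripts, 3625 nt for *HEXIM1* and 1436 nt for *HEXIM2*, it was 0.590 (0.450 to 0.777). The *CDK9* RPKM was 8.11-fold the summed RPKM of both HEXIM genes (7.03 to 9.34), and 8.05-fold (6.94 to 9.35) with the canonical transcripts. That gap was therefore kept on both lengths, while the balance inside the pair was not.

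**Figure D2:**
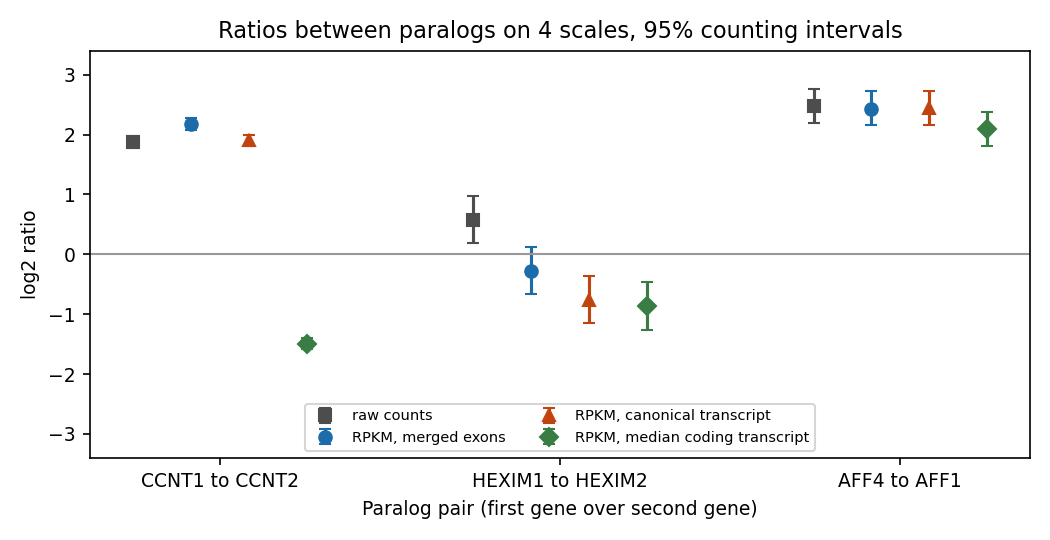
Log2 ratio of the paralogs *CCNT1* to *CCNT2*, *HEXIM1* to *HEXIM2* and *AFF4* to *AFF1* in raw counts and in RPKM with 3 gene lengths; bars are 95% counting intervals and the line at 0 marks equal values. *AFF4* lies above *AFF1* on all 4 scales, *CCNT1* above *CCNT2* on all but the median coding transcript, and *HEXIM1* above *HEXIM2* in raw counts only.

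*LARP7*, the La-related protein that stabilizes 7SK RNA, had the most counts of the 7SK snRNP protein genes. It also had the highest RPKM of them with merged exons and canonical transcripts. Without bases shared with another gene in the lengths it lay below *MEPCE* (7.52), but that length need not match the counts, as given below. *LARP7* lies on chromosome 4 (112637077 to 112657696, plus strand) and had 1188 counts, 52.3 CPM (49.4 to 55.3) and an RPKM of 6.46 (6.10 to 6.84). Its level rests on the length more than that of any other of the 9 genes between the merged exons and the canonical transcript. The merged exons of its 39 annotated transcripts measure 8094 nt and the canonical transcript 2107 nt, with which the RPKM was 24.8 (23.4 to 26.3). On the canonical length *LARP7* came next after *CDK9* and *CCNT1*. There *LARP7* was 0.687-fold *CDK9* (0.639 to 0.739), against 0.217-fold (0.201 to 0.233) with merged exons. Of its 75 nt windows 2.31% also occur on chromosome 7, inside *PILRA* and an unnamed gene.

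*MEPCE*, the methyltransferase that caps 7SK RNA, is on chromosome 7 (100428322 to 100434126, plus strand). It had 223 counts, 9.81 CPM (8.57 to 11.2) and an RPKM of 2.91 (2.54 to 3.32), so that *CDK9* was 10.3-fold *MEPCE* (8.92 to 11.8). *LARP7* was 2.22-fold *MEPCE* (1.92 to 2.57) with merged exons and 7.14-fold (6.18 to 8.27) with canonical transcripts. In GENCODE v44 a gene with the identifier ENSG00000289690 shares 61.3% of the merged exons of *MEPCE* on the same strand. That gene is absent from the count table, so the counts of *MEPCE* can include reads from the shared bases. With shared bases left out of the lengths but not of the counts, *LARP7* was 0.859-fold *MEPCE* (0.744 to 0.996). *CDK9* was then 4.21-fold *MEPCE* (3.67 to 4.86). These 2 ratios may therefore set *MEPCE* too high.

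The 7SK RNA itself was listed at 0. At its locus 2 identifiers, *RN7SK* and 7SK, are annotated over each other, and each had 0 counts, for which 3 counts would be 0.132 CPM. A further 299 genes named as copies of 7SK held 39 counts in all, on 13 of them. The libraries were selected for polyadenylated RNA, and 7SK, a Pol III transcript, has no poly(A) tail. In v44 *RN7SK* also shares 100% of its exon bases with another gene on the same strand. What gave the 0 was not tested, and it is no measure of the 7SK RNA in the cells.

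The SEC scaffolds were among the lower genes. *AFF4*, the main scaffold of the SEC, is on chromosome 5 (132875395 to 132963634, minus strand) and had 674 counts, 29.7 CPM (27.5 to 32.0) and an RPKM of 2.63 (2.43 to 2.84). *AFF1*, its paralog and a fusion partner of *KMT2A* in leukaemia, spans 206038 bp of chromosome 4 (86935002 to 87141039, plus strand), the longest of the 9 genes. It had 121 counts, 5.33 CPM (4.42 to 6.36) and an RPKM of 0.486 (0.403 to 0.581), with an interval that lies under 1. *AFF4* was 5.41-fold *AFF1* (4.45 to 6.62) with merged exons as well as with canonical transcripts (4.45 to 6.62), and 5.57-fold (4.58 to 6.82) in raw counts. Of the 75 nt windows of *AFF1* 2.82% also occur at another place of chromosome 4. The other AFF family members were at or near 0, *AFF2* with 0 counts and *AFF3* with 1 count.

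In order of RPKM with merged exons, the genes were *CDK9*, *CCNT1*, *LARP7*, *CCNT2*, *MEPCE*, *AFF4*, *HEXIM2*, *HEXIM1* and *AFF1*. Of the 8 pairs of neighbours in this order, 2 had a ratio whose counting interval held 1. These were *MEPCE* and *AFF4*, at 1.11 (0.947 to 1.29), and *HEXIM2* and *HEXIM1*, at 1.21 (0.921 to 1.59). The step from *CCNT1* to *LARP7* was 4.06-fold (3.80 to 4.33) and that from *HEXIM1* to *AFF1* 3.42-fold (2.66 to 4.41). With the canonical transcripts the order of the 9 genes was the same. There the pairs whose interval held 1 were *MEPCE* and *AFF4*, at 1.12 (0.957 to 1.30), and *AFF4* and *HEXIM2*, at 1.10 (0.886 to 1.39), and the large step fell between *LARP7* and *CCNT2*, at 3.26-fold (3.01 to 3.53).

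**Figure D3:**
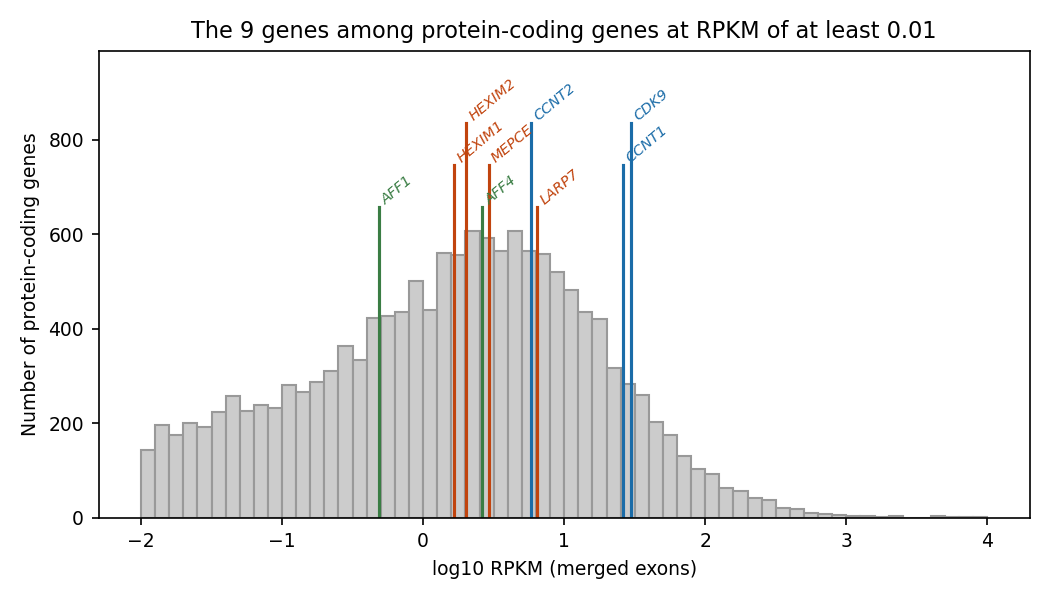
Histogram of log10 RPKM (merged exons) of the 14466 protein-coding genes at an RPKM of at least 0.01, with a vertical line for each of the 9 genes; the height of a line has no meaning and serves its label. *CDK9* and *CCNT1* lie on the right slope, and the other 7 genes near or left of the peak.

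Next to other genes of Pol II pausing and elongation, the kinase and cyclin T1 were in the upper part, and the HEXIM genes, *MEPCE* and the AFF genes in the lower part. Among 50 coding genes, the 9 and 41 others, *CDK9* ranked 10 and *CCNT1* 11 by RPKM with merged exons. With canonical transcripts they ranked 13 and 19. *LARP7* ranked 26 (22 with canonical transcripts), *CCNT2* 29 (30), *MEPCE* 34 (36), *AFF4* 36 (37), *HEXIM2* 37 (39), *HEXIM1* 40 (42) and *AFF1* 44 (45). Of the 41 others 34 reached an RPKM of 1, or 82.9% against 44.6% of all protein-coding genes, and the median of the 41 was 9.95. These lists were written from known roles with earlier results in view, and a share above that of all protein-coding genes is a description of them.

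The subunit genes of DSIF and NELF, the pausing factors that P-TEFb phosphorylates, each had a higher RPKM than most of the 9 genes. With merged exons both subunits of DSIF had an RPKM of at least 1, against 44.6% of all protein-coding genes. They were *SUPT4H1* at 46.8 and *SUPT5H* at 14.4. With canonical transcripts they were at 65.4 and 33.6. All 4 subunits of NELF, the complex that holds Pol II in the pause, also had an RPKM of at least 1. With merged exons they ran from *NELFA* at 4.01 to *NELFB* at 62.7. *NELFB* was 2.10-fold *CDK9* (1.99 to 2.22) with merged exons, 1.74-fold (1.64 to 1.83) with canonical transcripts and 1.11-fold (1.05 to 1.18) with the median coding transcript. All 7 genes of the PAF complex and SPT6, which follow Pol II into elongation, were between *CDC73* at 2.01 and *CTR9* at 22.7.

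Of 9 further SEC and AFF family genes 5 reached an RPKM of 1, a share of 55.6% that lies near the 44.6% of all protein-coding genes. Their median was 1.12, and *MLLT1* at 15.4 was the highest. Of the 4 BET proteins, which read acetylated histones, 3 did so, with *BRD2* at 22.7 and the testis gene *BRDT* at 1 count. All 5 hnRNP and SR protein genes whose products bind 7SK RNA were above the 7SK snRNP protein genes with merged exons, from *SYNCRIP* at 22.9 to *HNRNPA2B1* at 166. Of 4 phosphatase genes linked to the release of P-TEFb 3 reached an RPKM of 1 with merged exons, with *PPM1G* at 79.1 and *PPM1A* at 0.824. With canonical transcripts all 4 reached it, *PPM1A* at 1.19, against 49.1% of all protein-coding genes.

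Of the other transcriptional kinases and their partners, 5 of 6 had an RPKM of at least 1 with merged exons, against 44.6% of all protein-coding genes. These 5 ran from *CDK12* at 1.84 to *CCNK* at 11.5, and *CDK13* was at 0.282. *CDK9* was 4.46-fold *CDK7* (3.99 to 5.00) and 16.3-fold *CDK12* (14.8 to 17.9) with merged exons, and 3.19-fold (2.85 to 3.57) and 12.6-fold (11.4 to 13.8) with canonical transcripts.

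**Figure D4:**
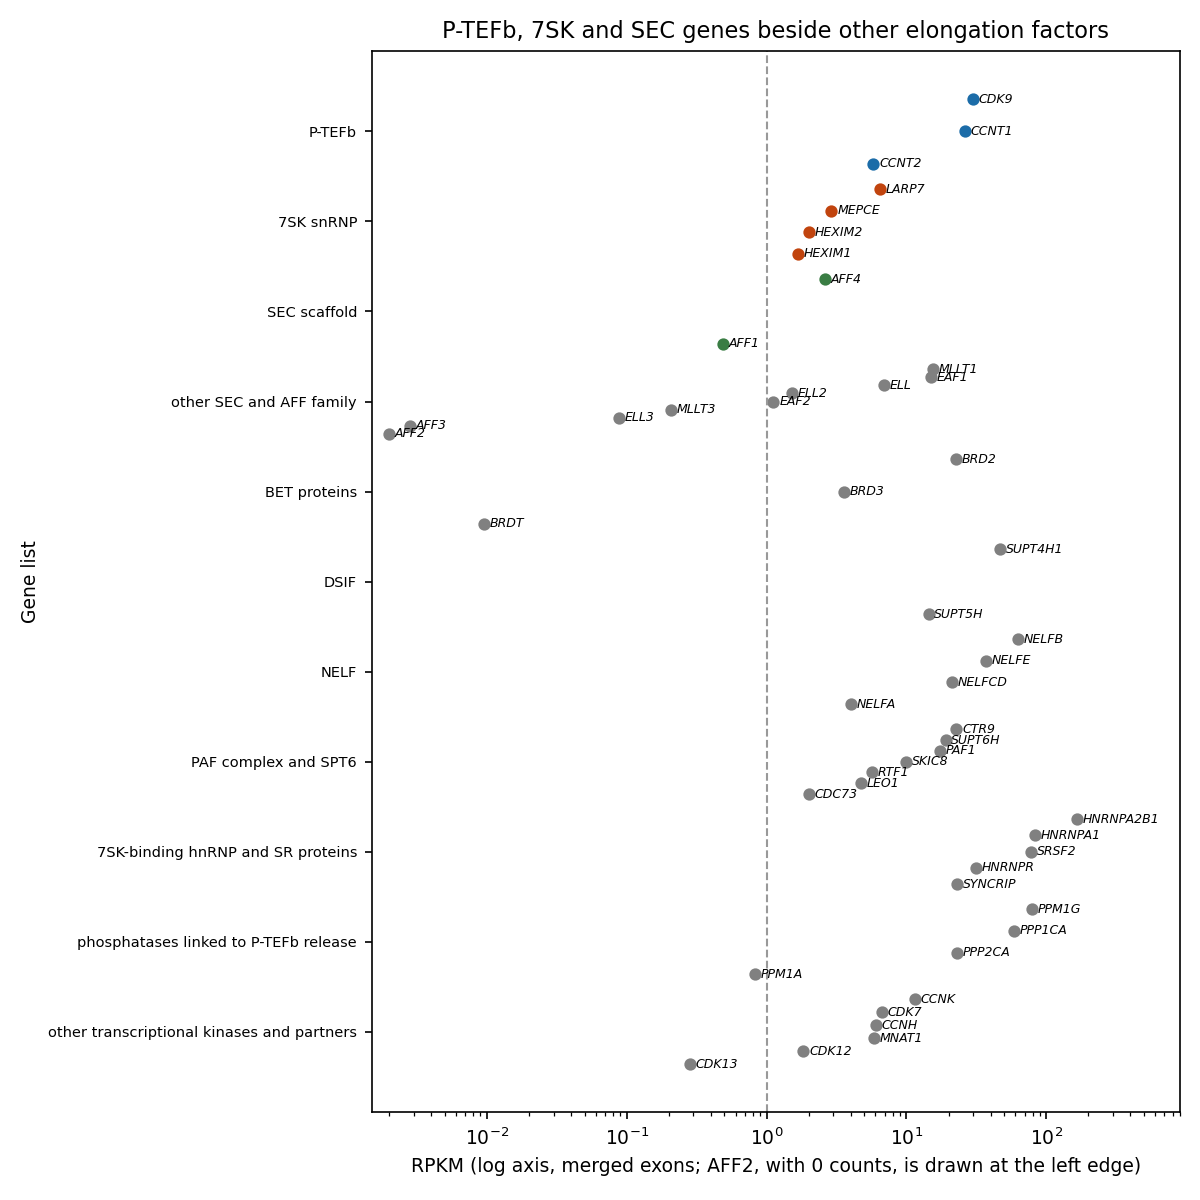
RPKM (log axis, merged exons) of the 9 genes (coloured) and 40 other coding genes of Pol II pausing and elongation (grey), 1 point per gene and 1 row per list; the dashed line marks an RPKM of 1, *AFF2* is drawn at the left edge for its 0 counts, and vertical offsets within a row only separate the points. The row of hnRNP and SR proteins lies right of the 7SK snRNP row, and the row of other SEC and AFF genes runs from *AFF2* to *MLLT1* at 15.4.

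The genes also differ in length and base composition. The canonical transcripts ran from 1436 nt (*HEXIM2*) to 9536 nt (*AFF4*), and their G and C content from 37.0% in *CCNT2* and 37.7% in *LARP7* to 61.3% in *HEXIM2* and 61.4% in *MEPCE*. The cyclin and AFF mRNAs have long 3′ untranslated regions, 4575 nt in *CCNT1*, 4694 nt in *CCNT2*, 5338 nt in *AFF1* and 5664 nt in *AFF4*, against 226 nt in *HEXIM2*. Of 6 annotated pseudogenes of *CCNT2*, *LARP7* and *AFF4*, 0 had a count. For 7 of the genes no 75 nt window of the canonical transcript occurred elsewhere in the assembled chromosomes, *LARP7* and *AFF1* being the exceptions given above.

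RefSeq gives 15 promoter windows for the 9 genes on GRCh38.p14, each of 300 bases that end shortly after a start. Their median G and C content was 64.3% and their median number of CpG 28, against 58.7% and 14 over all 35116 windows. Letters were searched on both strands. GGGCGG, the core of the GC box, was in 11 of the 15 windows and in 45.0% of all windows, and CCAAT was in 8 and in 34.6%. TATAAA, the TATA box letters, was found in 1 window, that of *HEXIM1*, and in 11.5% of all windows. The start of *HEXIM1* was the single window of the 15 that held all 3 of these motifs. These matches describe the letters of the windows, and no binding was measured.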

How the data were processed

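PolyA-selected, strand-specific RNA-seq libraries (single-end, 75 nt) were sequenced. The authors mapped reads to hg38 and rRNA with ContextMap, using BWA, and deposited raw counts per gene from featureCounts with Gencode version 25, without normalization. All 12 columns were identical. They were counted as 1 sample, read from the first DMSO column, and its treatment was not inferred. No comparison between treatments, including the edgeR design of the study, was run.

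Identifiers without their version suffix were matched to GENCODE v44 (56948 of 58037 genes, 99.8% of counts). CPM used the total of 22720718 counts, of which 10.4% were mitochondrial, and RPKM the merged exons of v44. Since the counts rest on version 25, the v44 lengths need not match the exons that were counted. Intervals of 95% are exact (Clopper-Pearson), for ratios from the conditional binomial share, and for sums of genes from a delta approximation on the log scale. Coding sequences were aligned globally (match 1, mismatch -1, gap opening -5, extension -1). Windows of 75 nt were searched without mismatches on both strands of 25 assembled chromosomes. The intervals and searches were tested on simulated data. Python 3.11.15 with scipy 1.17.1 was used.

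The genes and lists were chosen with earlier results of these data known. Genes named are the 9 members, genes that overlap, copy or lie antisense to them, the highest and lowest gene of each list, and partners set in a ratio to a member. *CDK7*, *CDK12*, *AFF3* and the markers *PTPRC*, *COL1A1* and *COL1A2* were named beyond this rule, after their values were seen. Since 1 column gives no pattern across samples, no gene of like pattern was sought. No protein sequences were used here. Of the 41 other elongation genes 40 are drawn, and some items are not reported here.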

Additional observations from a re-analysis of the deposited data

How the results depend on the processing

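No paired analysis was possible because the 12 columns used here were identical and counted as 1 sample. For the same reason no replicate was left out and no drug effect was fitted. Values in raw counts, the removal of shared bases from ratios of complex partners, and the CPM and count filters on the other elongation genes were chosen after the data were seen.

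Log2 ratios with merged exons were 2.18 for *CCNT1* to *CCNT2*, -0.28 for *HEXIM1* to *HEXIM2*, 2.44 for *AFF4* to *AFF1*, 0.10 for the T cyclins to *CDK9*, 1.15 for *LARP7* to *MEPCE*, -3.02 for the HEXIM genes to *CDK9* and -3.26 for the AFF genes to *CDK9*. With canonical transcripts, *CCNT1* to *CCNT2* was 1.90, *HEXIM1* to *HEXIM2* -0.76, *LARP7* to *MEPCE* 2.83 and the T cyclins to *CDK9* -0.0012, a change of sign within the counting interval. With the median coding transcript, which is shortened by partial transcripts such as those of *CCNT2*, they were, in the order of the first sentence, -1.49 (a reversal), -0.87, 2.09, 0.94, 2.35, -3.58 and -1.58. In raw counts *CCNT1* to *CCNT2* was 1.87, *HEXIM1* to *HEXIM2* 0.57 (a reversal), the T cyclins to *CDK9* 1.46, *LARP7* to *MEPCE* 2.41 and the AFF genes to *CDK9* -1.36. Without exon bases shared with another gene of v44 on the same strand, the T cyclins to *CDK9* moved to 0.015 and *LARP7* to *MEPCE* reversed to -0.22. The overlapping genes come from v44, a later annotation than the one used for counting, and are absent from the count table. This length therefore need not match the counts.

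The number of the 9 genes with an RPKM of at least 1 was 8 with canonical transcripts, without mitochondrial counts or with a minimum of 10 counts, and 9 with the median coding transcript or a CPM of at least 1. With 3 counts at 0.132 CPM as the floor, depth did not limit detection of the 9 genes, but the HEXIM pair could not be ordered with merged exons.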
